A study of Mus musculus with 9 samples.

Results

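The transcriptome of immunopanned retinal ganglion cells (RGCs) from saline-injected eyes was described from the 3 Control libraries, which are 3 of the 9 libraries of the series. The members were chosen by their titles alone, Control replicates 1 to 3. The libraries of eyes with mild or moderate elevation of intraocular pressure (IOP) were not used here. All 3 libraries came from C57BL/6J mice aged 8 weeks, whose eyes had received saline in the anterior chamber 2 weeks earlier. The study used mice of both sexes. RNA of the isolated cells was pooled over animals, and the pool was divided into 3 technical replicates. The SD between libraries therefore covers technical variation only, and variation between animals cannot be seen in these data. There is no second group, so every value below is a description and no test was made.

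RGCs are the output neurons of the retina. They receive glutamate from bipolar cells and inhibition from amacrine cells, and they send long axons through the optic nerve to the brain. Their transmitter is glutamate, and their axons are rich in neurofilaments, microtubules and mitochondria. In the method of the study, dissociated retinal cells were passed over 3 negative plates, coated with a lectin (BSL-1), an antibody to CD11b/c and the antibody VC1.1. The lectin and CD11b/c plates hold back vascular cells, macrophages and microglia, and VC1.1 holds back amacrine cells. The cells were then collected on a plate coated with an antibody to Thy1.2, a surface protein of RGCs. cDNA was primed with oligo-dT, so polyadenylated RNA was measured. In such bulk RNA, fewer cells of a type and less RNA per cell cannot be told apart.

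The unit of every level is FPKM, a count of fragments scaled by transcript length and by library size, which the authors estimated for each locus. As FPKM is corrected for transcript length, levels of different genes may be set beside each other. Each library listed the same 23997 gene symbols. The depth was not given with the values. The width of the authors' confidence intervals corresponded to 6960000, 8770000 and 4910000 fragments in replicates 1, 2 and 3. An FPKM above 0 was found for 14451, 14733 and 14268 genes in the 3 libraries, and 10585 genes (44.1% of the symbols) reached 1 FPKM or more in every library. A further 8215 genes were listed at 0 in every library, which at this depth does not show that they are absent. Scaling factors between the libraries lay between 0.995 and 1.011, so the values were used as deposited.

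RNA of the Control cells was concentrated in a small number of genes. The 10 highest genes of each library held 11.0, 11.7 and 11.6% of its summed FPKM in replicates 1, 2 and 3 (11.4% ± 0.337, SD, n = 3 technical replicates). The 100 highest held 28.2% ± 0.679, and the 1000 highest held 65.8% ± 0.672. Between 417 and 450 genes were enough to make up 50% of the sum in a library, and 90% took between 3888 and 3987 genes. By mean level, 50 genes lay at 1000 FPKM or more and held 20.8% of the sum, 1015 genes lay between 100 and 1000 FPKM and held 46.0%, and the 5743 genes between 1 and 10 FPKM held 4.38%. Protein-coding genes made up 95.1% ± 1.11 of the sum. The longest annotated transcript of a gene had a median of 3932 nt in the class from 1 to 10 FPKM and of 1608 nt in the class of 1000 FPKM and more.

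**Figure D1:**
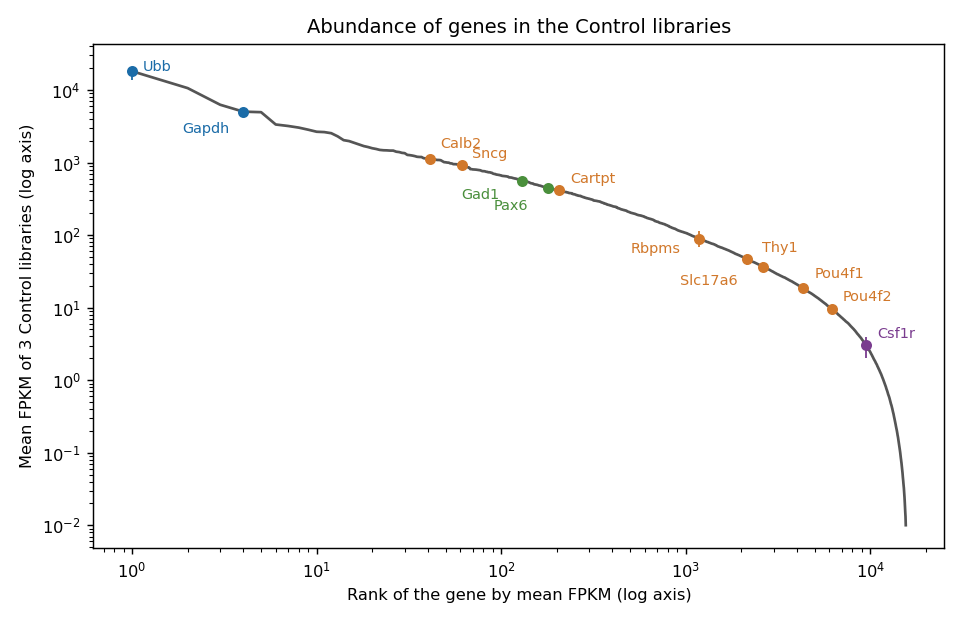
Mean FPKM of the 3 Control libraries (vertical log axis) against the rank of each gene (horizontal log axis), with genes above 0.01 FPKM drawn as a line. Named genes are points whose bars span the lowest and highest library; Calb2 stands at rank 41, Gad1 at rank 130, Cartpt at rank 206 and Slc17a6 at rank 2621.

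The highest gene in each library was Ubb, which encodes chains of ubiquitin, the small protein that marks other proteins for degradation. Ubb (chr11:62551504-62553212, mm10) had 19856, 20785 and 13708 FPKM in replicates 1, 2 and 3 and held between 2.46 and 3.59% of the sum. Replicate 3 was the lowest of the 3. The ubiquitin pseudogene Gm1821 followed with 11122, 12531 and 8151 FPKM, summed over 2 loci. One of these loci, chr11:62551504-62553206, lies on Ubb itself, so fragments of the near-identical copies may have been divided between them and their separate levels are uncertain. Whether fragments were assigned differently between ubiquitin sequences in replicate 3 was not tested.

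Enzymes and housekeeping proteins filled most of the other places among the 30 highest genes. Ppia, the cyclophilin that the study also used as a qPCR reference, had 6355, 6595 and 5813 FPKM, and the other qPCR references were Hprt (240 ± 14.9 FPKM) and Tubb5 (204 ± 22.7 FPKM). Glycolytic enzymes took 6 places, Gapdh (5024 ± 576 FPKM), Aldoa (4939 ± 516 FPKM), Eno1 (1865 ± 46.4 FPKM), Pkm (1767 ± 138 FPKM), Tpi1 (1492 ± 199 FPKM) and Ldha (1409 ± 154 FPKM). Ckb, the brain-type creatine kinase that buffers ATP, had 3342 ± 238 FPKM. Mitochondrial genes of the nucleus were Atpif1, the inhibitor of the ATP synthase (2033 ± 267 FPKM), Cox8a (1537 ± 43.8 FPKM), Usmg5 (1460 ± 363 FPKM), Ndufa4 (1459 ± 107 FPKM), Atp5b (1345 ± 32.8 FPKM) and Mgarp, a mitochondrial protein (1573 ± 42.8 FPKM). The cytoskeleton was represented by Tuba1a (2655 ± 289 FPKM), Tuba1b (1393 ± 138 FPKM), the tubulin-binding Stmn1 (1633 ± 89.8 FPKM) and Actg1 (1470 ± 105 FPKM).

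Neuronal function was represented among the 30 highest genes by Snap25, a SNARE protein of synaptic vesicle fusion. Its level was 2545, 2482 and 2848 FPKM in replicates 1, 2 and 3, and replicate 3 was the highest. Calm2, a calmodulin gene, had 2061, 2136 and 2684 FPKM, again with the highest value in replicate 3. The proton pump subunit Atp6v0c, which acidifies synaptic vesicles and lysosomes, had 1685 ± 146 FPKM. The remaining places were held by the cytokine and tautomerase Mif (2535 ± 133 FPKM), the chaperone Hspa8 (1972 ± 179 FPKM), the ubiquitin ligase adaptor Ndfip1 (1358 ± 97.6 FPKM), the proteasome subunit Psmb5 (3188 ± 1845 FPKM) and the microRNA genes Mir31 and Mir6385. Of the 30 genes highest by mean, 27 are protein-coding. When each library was ranked on its own, 23 genes were among the 30 highest of all 3 libraries.

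The mean ranks of Mir31 and Mir6385 came from 1 library. Mir31 was listed at 0 in replicates 1 and 2 and at 9080 FPKM in replicate 3, with a confidence interval from 2660 to 15501 FPKM, a width that corresponds to 8 fragments. Mir6385 was likewise listed at 0, 0 and 4425 FPKM, which corresponds to 3 fragments. These loci are no longer than the hairpins, so a handful of fragments gives a large FPKM, and mature microRNA was not measured by these libraries. The hairpins are shown for their small length, as RNA from RefSeq (GRCm38.p6), 5′ to 3′, with the annotated mature arms in capitals. The Mir31 hairpin has 106 bases at chr4:88910557-88910662 on the minus strand, and the Mir6385 hairpin has 105 bases at chr9:58221150-58221254 on the plus strand.
Mir31: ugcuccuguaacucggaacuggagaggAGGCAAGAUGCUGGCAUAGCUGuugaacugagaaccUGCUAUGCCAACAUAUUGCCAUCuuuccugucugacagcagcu
Mir6385: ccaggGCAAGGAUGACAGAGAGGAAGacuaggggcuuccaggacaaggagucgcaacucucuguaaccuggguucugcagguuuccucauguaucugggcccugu

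Promoters were compared between genes of different level, as RefSeq windows from 250 bases before to 50 bases after a start. The TATA box motif TATAAA was searched on the coding strand only, within the stretch from 45 to 10 bases before the start. It occurred in 2.22% of all 32851 windows. A gene counted as holding it when any of its windows did, and 16446 of 20447 protein-coding genes (80.4%) had a window. The motif was found in 5.6% of the genes under 1 FPKM, in 1.5% of those from 1 to 100 FPKM and in 1.79% of those of 100 FPKM and more. The median number of CpG dinucleotides per window was 4 in the genes under 1 FPKM and 21 in both higher classes. Of the 45 protein-coding genes of 1000 FPKM and more, 34 had a window (75.6%), too few for a share to be read, and 3 of these held the motif. These were Ppia, Ckb and Tubb2a, a neuronal beta tubulin. They are shown with the ganglion cell genes Sncg and Cartpt, which did not hold it, as stretches from 70 bases before to 20 bases after the start (GRCm38.p6), 5′ to 3′, with TATAAA in capitals. The stretch of Ppia lies at chr11:6415797-6415886 (plus strand), that of Ckb at chr12:111672319-111672408, that of Tubb2a at chr13:34077989-34078078, that of Sncg at chr14:34374650-34374739 and that of Cartpt at chr13:99900664-99900753 (all minus strand).
Ppia: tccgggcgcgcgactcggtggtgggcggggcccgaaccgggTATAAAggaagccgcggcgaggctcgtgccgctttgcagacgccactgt
Ckb: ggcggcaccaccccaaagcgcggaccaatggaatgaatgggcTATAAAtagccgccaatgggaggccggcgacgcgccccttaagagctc
Tubb2a: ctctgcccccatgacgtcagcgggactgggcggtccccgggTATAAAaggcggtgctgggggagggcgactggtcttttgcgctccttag
Sncg: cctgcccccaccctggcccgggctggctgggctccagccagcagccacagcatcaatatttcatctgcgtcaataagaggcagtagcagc
Cartpt: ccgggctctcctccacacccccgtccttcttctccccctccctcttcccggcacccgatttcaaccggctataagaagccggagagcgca
In Ppia and Tubb2a the motif began 29 bases before the start, and in Ckb 28 bases before it. A match of these letters is a description and not a shown binding site.

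All 17 ganglion cell markers that were examined were detected at 10 FPKM or more in every Control library, and 8 of them reached 100 FPKM in every library. Calb2 (chr8:110142538-110168206, mm10), which encodes the calcium-binding protein calretinin, was the highest, with 1182, 1123 and 1075 FPKM. Sncg (chr14:34370274-34374669), which encodes gamma-synuclein, had 871, 953 and 952 FPKM. Cartpt (chr13:99898483-99900683), the precursor of the neuropeptide CART and a marker of direction-selective RGCs, had 408, 419 and 416 FPKM. These 3 genes were parted by more than the spread of their libraries and stood at ranks 41, 61 and 206 of all genes. Their coefficients of variation (CV, the SD as a percent of the mean) were 4.77, 5.11 and 1.35%, all under the median of their level classes.

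Cytoskeletal markers came next in order. The light neurofilament Nefl had 360, 346 and 338 FPKM, the tubulin-binding Tppp3 had 298 ± 15.0 FPKM and the neuronal tubulin Tubb3 had 277 ± 36.1 FPKM. The growth cone protein Gap43 (155 ± 8.84 FPKM) and the stathmin Stmn2 (147 ± 17.5 FPKM) followed, then the nicotinic receptor subunit Chrna6 (110 ± 14 FPKM) and S100a10 (102 ± 27.6 FPKM). Genes that are widely used to recognise RGCs were lower. The RNA-binding protein Rbpms had 86.4, 112 and 69.2 FPKM, and its relative Rbpms2 had 63.5, 63.6 and 86.0 FPKM, so that their libraries overlapped. The panning antigen Thy1 had 45.2, 55.4 and 39.1 FPKM, and Nrn1, a neuritin, had 41.2 ± 3.20 FPKM. Slc17a6, the vesicular glutamate transporter of RGCs, had 42.4, 32.2 and 35.4 FPKM. The neurofilaments Nefm (29.5 ± 2.61 FPKM) and Nefh (21.5 ± 2.68 FPKM) closed the order. Of the 16 pairs of neighbours in it, 9 did not overlap in any library and 7 did. Together the 17 genes held 0.751% ± 0.0136 of the sum, and the median of the list was 113 ± 18.3 FPKM, against 13.0 ± 0.151 FPKM for all genes at 1 FPKM or more in every library.

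**Figure D2:**
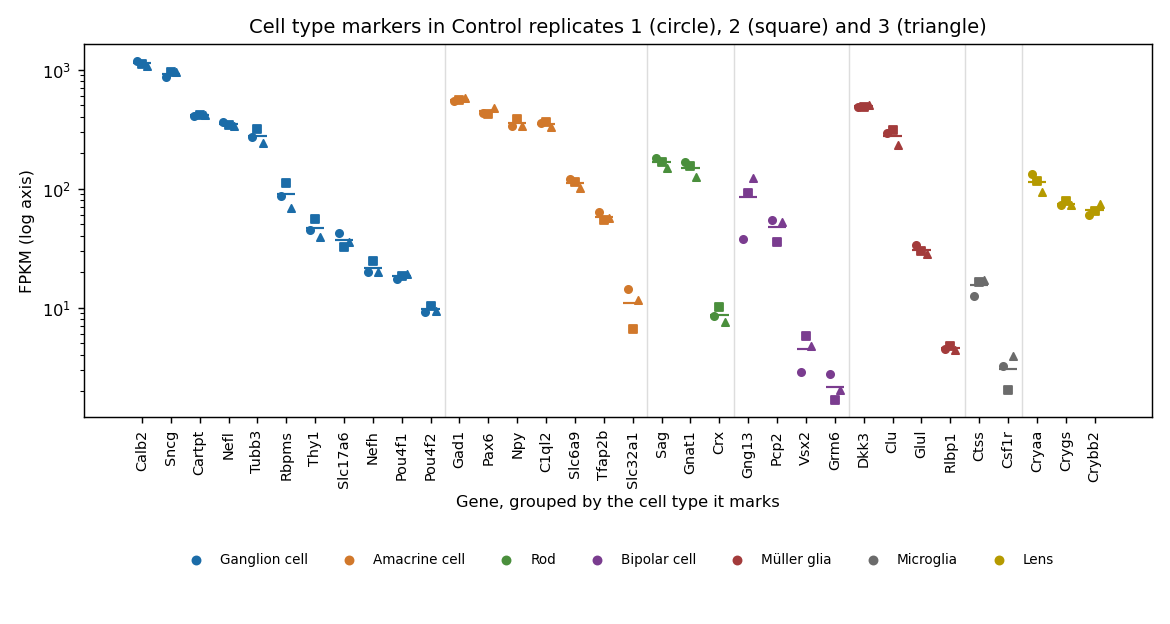
FPKM (log axis) of markers of 7 cell types in Control replicates 1 (circle), 2 (square) and 3 (triangle), with the mean as a line. Calb2 and Sncg are the highest markers shown, and the amacrine genes Gad1 and Pax6 lie above Rbpms, Thy1 and Slc17a6 in every library.

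Transcription factors of RGCs were measured at lower levels than the markers. Of 38 factors, 25 reached 1 FPKM and 11 reached 10 FPKM in every library, and 2 (Dlx1 and Dlx2) were listed at 0. The highest were the Krüppel-like factors Klf6 (94.2 ± 10.1 FPKM) and Klf9 (35.6 ± 2.25 FPKM), and the neuronal factor Myt1l (30.8 ± 4.15 FPKM). The Brn3 factors, POU proteins that specify and maintain RGCs, were led by Pou4f1, with 17.5, 18.3 and 19.3 FPKM. Pou4f2 had 9.14, 10.4 and 9.45 FPKM and Pou4f3 had 5.21, 2.10 and 3.91 FPKM, and the ranges of the 3 genes did not overlap. Pou4f1 thus made up 57.8% ± 2.53 of the summed FPKM of the group. The LIM factor Isl1 had 12 ± 1.87 FPKM and Isl2 had 6.21 ± 1.41 FPKM. Atoh7, which acts in RGC birth during development, had 0.651, 0 and 0.925 FPKM.

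Markers of RGC types were present in the mixture. Of 39 such genes, 25 reached 1 FPKM and 12 reached 10 FPKM in every library, with a median of 4.24 ± 0.763 FPKM. The adhesion protein Amigo2 was the highest (54.7 ± 6.63 FPKM), followed by the enkephalin precursor Penk (31.4 ± 5.67 FPKM) and Opn4. Opn4, the melanopsin of intrinsically photosensitive RGCs, had 24.3, 27.9 and 24.1 FPKM. Spp1 (osteopontin), a marker of alpha RGCs, had 16.8, 11.0 and 12.5 FPKM, and Tbr1 and Eomes, factors of other RGC types, had 1.22 ± 0.623 and 2.40 ± 0.396 FPKM.

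Genes of amacrine cells, the inhibitory interneurons whose bodies lie beside those of RGCs, were also high. Of the 23 genes of this list, 19 reached 1 FPKM and 7 reached 100 FPKM in every library, and the list held 0.518% ± 0.0145 of the sum. Gad1, which makes GABA, had 541, 553 and 579 FPKM, and the eye development factor Pax6, which RGCs share with amacrine cells, had 433, 422 and 479 FPKM. Gad1 was 15.4 ± 2.35 times Slc17a6 and 6.52 ± 1.73 times Rbpms within a library, and Pax6 was 24.2 ± 0.983 times Pou4f1. Neuropeptide Y (Npy, 354 ± 29.5 FPKM), C1ql2 (349 ± 18.1 FPKM) and the tachykinin precursor Tac1 (188 ± 30 FPKM) followed, then the glycine transporter Slc6a9 (112 ± 9.52 FPKM). The amacrine factors Tfap2b (58.2 ± 4.88 FPKM) and Tfap2c (26.6 ± 1.73 FPKM) were above Pou4f1. The starburst amacrine genes Chat and Slc18a3 were near 0, with means of 0.192 and 1.06 FPKM. By these levels the material cannot be described as RGC RNA alone. Calretinin is also made by amacrine cells, so the level of Calb2 cannot be assigned to RGCs from these data.

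Rod and cone genes each held less of the sum than amacrine genes. The median of the rod list was nevertheless not below that of the amacrine list, which was 25.2 ± 1.13 FPKM. All 23 rod genes reached 1 FPKM in every library, with a median of 27.4 ± 1.53 FPKM and 0.179% ± 0.00825 of the sum. Arrestin (Sag) had 181, 168 and 149 FPKM and the rod transducin Gnat1 had 168, 156 and 124 FPKM. The phosphodiesterase subunit Pde6g (112 ± 21.7 FPKM) was below Gnat1 on average. Of 13 cone genes, 7 reached 1 FPKM in every library, led by Guca1a (43.7 ± 8.59 FPKM), Gnb3 (20.4 ± 0.890 FPKM) and Rxrg (16.4 ± 4.71 FPKM), while the opsins Opn1sw and Opn1mw had 2.33 ± 0.984 and 2.48 ± 0.959 FPKM.

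Bipolar cell genes were mostly low, and 11 of 18 reached 1 FPKM in every library. The exceptions were the G protein subunit Gng13, with 38.0, 92.5 and 122 FPKM, and Pcp2 (47.7 ± 10.4 FPKM), followed by Cabp5 (9.65 ± 1.47 FPKM). Vsx1 and Lhx3 were listed at 0. Of 6 horizontal cell genes Sept4 (82.1 ± 24.7 FPKM) and Calb1 (19.2 ± 3.27 FPKM) were above 10 FPKM, and Lhx1 was listed at 0.

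Genes of glia and of cells outside the neural retina differed widely. In the Müller glia list of 16 genes, the secreted proteins Dkk3 (492 ± 11.9 FPKM) and Clu (278 ± 41.4 FPKM) and the lipid enzyme Acsl3 (98.0 ± 5.93 FPKM) were high. The defining Müller genes Glul (30.5 ± 2.77 FPKM), Rlbp1 (4.53 ± 0.193 FPKM), Slc1a3 (2.10 ± 0.297 FPKM) and Aqp4 (1.69 ± 0.104 FPKM) were much lower, and the median of the list was 3.75 ± 0.747 FPKM. Of 17 microglia and macrophage genes, 9 reached 1 FPKM in every library and the median was 1.60 ± 0.361 FPKM, with Ctss (15.4 ± 2.40 FPKM) and C1qc (13.3 ± 3.27 FPKM) among the highest. Astrocyte, oligodendrocyte, endothelial, fibroblast and pigment epithelium lists had medians under 0.1 FPKM, and in these lists S100b (1.34 ± 0.884 FPKM), Cnp (6.88 ± 2.43 FPKM), Kdr (1.79 ± 0.184 FPKM), Dcn (0.529 ± 0.466 FPKM) and Rdh5 (1.37 ± 0.967 FPKM) were the highest. Next in these lists came Gfap (0.804 ± 1.11 FPKM), Aldh1l1 (0.171 ± 0.151 FPKM), Mbp (2.97 ± 1.09 FPKM), Mag (0.928 ± 0.893 FPKM), Rgs5 (1.12 ± 1.06 FPKM), Flt1 (0.746 ± 0.329 FPKM), Col1a2 (0.0414 ± 0.0717 FPKM), Mlana (1.03 ± 1.79 FPKM) and Dct (0.814 ± 0.455 FPKM). Listed at 0 were 4 of 9 oligodendrocyte genes (Mog, Olig1 and Olig2 among them), 5 of 17 endothelial and pericyte genes (Cldn5, Cdh5 and Vwf among them), 3 of 5 fibroblast genes (Col1a1, Col3a1 and Lum) and 4 of 10 pigment epithelium genes (Rpe65, Ttr and Lrat among them). In the haemoglobin list, Hba-a1 (24.1 ± 9 FPKM) was the highest gene, followed by Hbb-b1 (5.23 ± 5.57 FPKM) and Hbb-bt (2.43 ± 1.19 FPKM).

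Lens crystallins were measured in the retinal material. Of 22 lens genes, 12 reached 1 FPKM in every library, and 4 (Cryga, Cryge and Crygf among them) were listed at 0. Cryaa had 132, 115 and 93.2 FPKM, Crygs had 72.6, 78.3 and 72.7 FPKM and Crybb2 had 60.3, 64.8 and 74.5 FPKM. Among lens genes that do not encode crystallins, the fibre membrane gene Lim2 had 4.67, 2.76 and 3.02 FPKM. The membrane gene Mip, the filament genes Bfsp1 and Bfsp2 and the connexin Gja3 were under 1 FPKM on average (0.670, 0.530, 0.685 and 0.441 FPKM). The part of lens tissue or of other retinal cells in the levels reported here was not tested.

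Of the antigens used on the plates, Thy1 was given above. Itgam and Itgax, the genes of the CD11b and CD11c antigens, were at 0.331 FPKM on average and listed at 0, respectively. The VC1.1 antibody binds a sugar epitope that no gene encodes directly. B3gat1, which makes that epitope, had 5.18 ± 0.557 FPKM, and Ncam1, an adhesion protein that can carry it, had 69.9 ± 7.73 FPKM.

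Gene families were then ordered by their share of the summed FPKM. Energy metabolism, protein turnover and translation held the largest shares. The 11 genes of the ubiquitin list held 4.13, 4.16 and 4.59%, and Nedd8 (665 ± 89.9 FPKM), a ubiquitin-like modifier, is one of them. The 19 glycolytic genes held 4.13, 4.04 and 3.55%, and 10 of them were among the 100 highest genes. Complex I of the respiratory chain, with 37 genes all above 10 FPKM in every library, held 2.93% ± 0.106, led by Ndufa4, Ndufb8 (970 ± 93.6 FPKM) and Ndufa1 (938 ± 40.4 FPKM). Complexes II to IV (32 genes) held 2.74% ± 0.0869, led by Cox8a, Uqcrb (1147 ± 200.4 FPKM) and Cox6a1 (1138 ± 106 FPKM). The 17 genes of the ATP synthase held 1.71% ± 0.0131, led by Atp5b, Atp5g3 (1118 ± 76.4 FPKM) and Atp5k (1076 ± 93.9 FPKM). No gene of the mitochondrial genome is listed in the files.

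**Figure D3:**
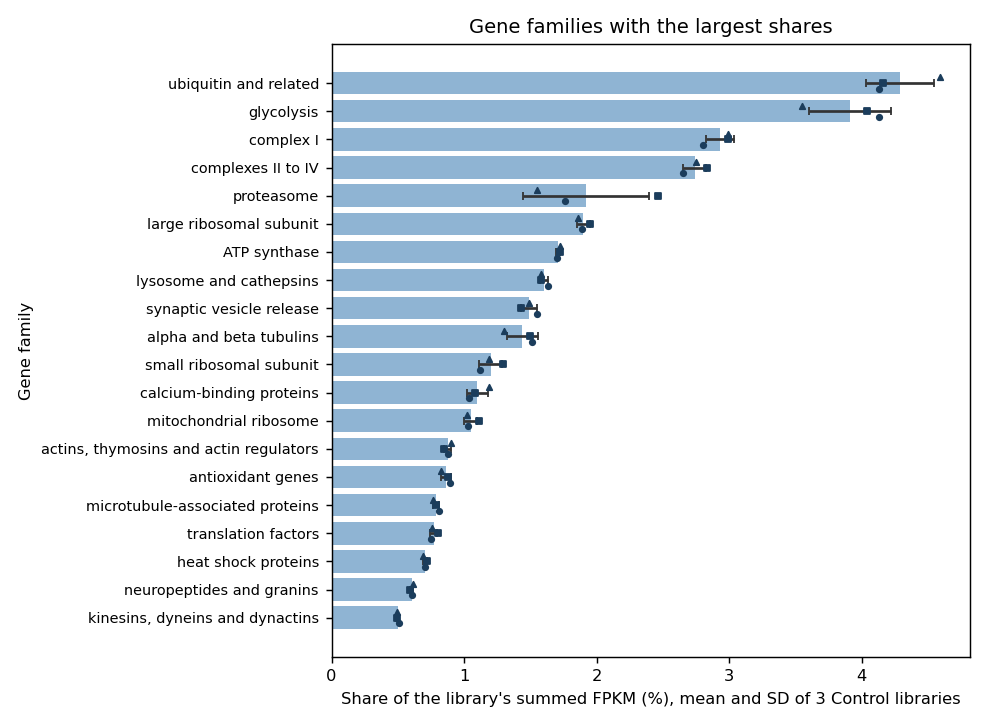
Share of the summed FPKM (%) held by the 20 gene families with the largest shares, as bars for the mean with the SD of 3 Control libraries and points for replicates 1 (circle), 2 (square) and 3 (triangle). Ubiquitin and glycolysis lead, and the proteasome bar has the widest error with replicate 2 at 2.46%.

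Within metabolism, particular isoforms carried most of the RNA. Eno1 made up 78.8% ± 0.764 of the enolases and the neuronal Eno2 20.8% ± 0.740. Aldoa made up 80.6% ± 0.278 of the aldolases, with Aldoc at 19.4% ± 0.275. Ldha, whose subunit favours lactate formation, made up 66.1% ± 0.301 of the lactate dehydrogenases. The SD of each of these shares was under 1 percentage point. Hk1 made up 97.1% ± 0.258 of the hexokinases, and the glucose transporters Slc2a1 (58.5% ± 2.34) and Slc2a3 (41.5% ± 2.34) were closer to each other.

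The proteasome held 1.76, 2.46 and 1.55% of the sum, and the high value of replicate 2 came with 2 of its 39 genes. Psmb5, a catalytic subunit, had 2363, 5302 and 1900 FPKM, and Psmc4, an ATPase subunit, had 924, 2100 and 796 FPKM. The other subunits did not share this pattern at that size, as Psmb6 (468, 542 and 383 FPKM) and Psma7 (419, 408 and 383 FPKM) show. Without Psmb5 and Psmc4, a step chosen after their values were seen, the share was 1.14%. Why these subunits differed between libraries of 1 pool was not tested.

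Ribosomal protein genes held 1.90% ± 0.0478 (large subunit, 50 genes) and 1.2% ± 0.0845 (small subunit, 33 genes), led by Rpl41 (859 ± 104 FPKM) and Rpl38 (732 ± 127 FPKM) and by Rps29 (547 ± 57.3 FPKM), Fau (377 ± 6.84 FPKM) and Rps25 (362 ± 15.3 FPKM). The 77 genes of the mitochondrial ribosome held 1.05% ± 0.0489, led by Mrps21, Mrpl27 and Mrpl42 (440, 239 and 233 FPKM). Among 30 translation factors the start factor Eif1 (1007 ± 35.1 FPKM) led Eif5a (554 ± 78.5 FPKM) and Eef1a1 (425 ± 7.67 FPKM). Many ribosomal genes have processed pseudogenes, so their levels are uncertain.

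Stress and clearance genes were also abundant. The lysosome list of 34 genes held 1.60% ± 0.0309, led by the proton pump subunits Atp6v0c, Atp6v0b (803 ± 88.7 FPKM) and Atp6v1f (613 ± 11.9 FPKM). Among 18 heat shock genes, the chaperones Hsp90ab1 (706 ± 48.1 FPKM) and Hsp90aa1 (391 ± 23.9 FPKM) followed Hspa8. Of 22 antioxidant genes the peroxiredoxin Prdx5 (804 ± 13.6 FPKM), the lipid peroxide reductase Gpx4 (722 ± 62.5 FPKM) and Prdx2 (673 ± 71.8 FPKM) were highest. The ferritin chains Fth1 (967, 1060 and 816 FPKM) and Ftl1 (809, 817 and 739 FPKM), which store iron, were far above Tfrc, the transferrin receptor that brings it in (16.7, 9.96 and 23.7 FPKM).

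The cytoskeleton was rich in tubulin RNA. The 15 alpha and beta tubulins held 1.44% ± 0.115 of the sum, with Tuba1a at 51.7% ± 0.562 of the alpha tubulins and Tubb2a (1145, 1154 and 988 FPKM) at 36.7% ± 0.259 of the beta tubulins. Tubb4a followed with 27.2% ± 0.972, and Tubb3, the marker above, made up 9.28% ± 0.679. Tuba1a, Tuba1b and Tuba1c are near-identical in their coding sequence, so the division between them is uncertain. Among neuronal intermediate filaments, Nefl made up 63.9% ± 0.555 and Ina, the internexin, 26.3% ± 0.684, while Nefm and Nefh together stayed below Ina. Stmn1 (1574, 1736 and 1588 FPKM) and Stmn3 (1013, 1008 and 829 FPKM) led the microtubule-associated proteins, ahead of the autophagy protein Map1lc3a (434 ± 33.5 FPKM). In transport motors, Dynlrb1 (811 ± 33.7 FPKM), Klc1 (535 ± 64.6 FPKM) and Dctn3 (256 ± 22.0 FPKM) were the highest of 29 kinesin, dynein and dynactin genes. Among actin genes Actg1, the thymosin Tmsb4x (733 ± 87.4 FPKM) and the cofilin Cfl1 (610 ± 67.9 FPKM) led.

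Calcium-binding proteins were led by Calm2, Calb2 and the calmodulin regulator Pcp4, which had 709, 1169 and 1042 FPKM. Calm2 made up 73.6% ± 1.83 of the 3 calmodulin genes, all of which encode the same protein. Among synucleins, small proteins of the nerve terminal, Sncg made up 69.9% ± 2.48. Calb2 was 60 ± 11.4 times its relative Calb1.

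Genes of synaptic vesicle release were present as a nearly full set, with 33 of 34 at 1 FPKM or more in every library and 14 at 100 FPKM or more. Snap25 was followed by the vesicle GTPase Rab3a (1054, 1058 and 882 FPKM) and the complexin Cplx3 (784, 793 and 701 FPKM). Cplx3, known from ribbon synapses and amacrine cells of the retina, made up 87.1% ± 0.400 of the complexins, and Cplx1 9.28% ± 0.188. Vamp2 made up 96.6% ± 0.779 of the synaptobrevins, and Rab3a 97.9% ± 0.915 of the Rab3 genes that were examined. Large scaffold proteins of the active zone were lower, as Bsn (2.86 ± 0.481 FPKM) and Pclo (8.71 ± 1.60 FPKM) show.

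**Figure D4:**
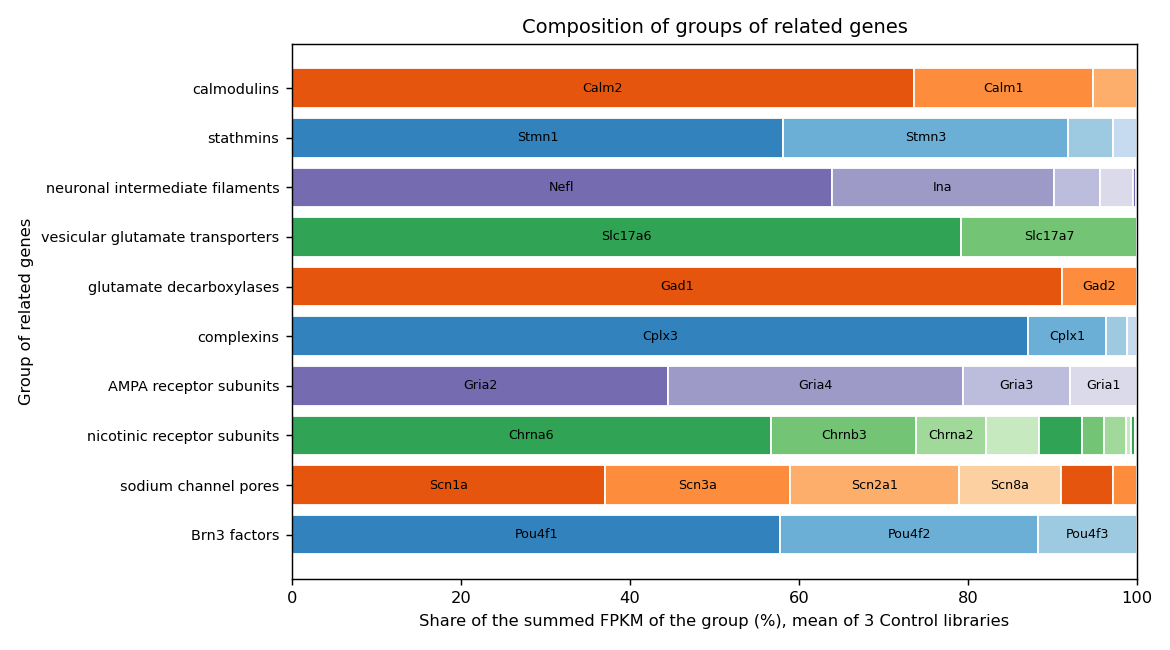
Composition of 10 groups of related genes, each bar giving the mean share (%) of the summed FPKM of the group over 3 Control libraries, with genes over 7% named. Gad1, Cplx3 and Slc17a6 each make up more than 3 in 4 parts of their group, while the sodium channel and AMPA receptor groups are divided among several genes.

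Transmitter genes held both glutamate and GABA systems. Slc17a6 made up 79.2% ± 5.98 of the vesicular glutamate transporters, and Slc17a7, the form of bipolar cells and photoreceptors, had 15.4, 8.59 and 6.08 FPKM. On the GABA side, Gad1 made up 91.1% ± 0.791 of the glutamate decarboxylases, with Gad2 at 54.7 ± 6.98 FPKM. Slc32a1, the vesicular carrier of GABA and glycine, had only 14.2, 6.60 and 11.7 FPKM, so the enzyme was far above the vesicular carrier.

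Neuropeptide and granin genes were well represented, with 25 of 27 at 1 FPKM or more in every library. Cpe, the carboxypeptidase that trims prohormones, was the highest (672, 653 and 596 FPKM). Cartpt came next, then Scg5 (386 ± 27.3 FPKM) and the granins Chga (380 ± 33.6 FPKM) and Scg2 (347 ± 24.6 FPKM).

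Ion channels and receptors were lower than the release machinery. The beta subunits of the sodium pump were Atp1b1 (68.4% ± 2.26), Atp1b3 (17.3% ± 0.628) and Atp1b2 (14.4% ± 1.83). Among 14 sodium channel genes, the auxiliary subunit Scn3b (29.0 ± 0.629 FPKM) was above every pore subunit. The pores ran in the order Scn1a (9.84 ± 1.15 FPKM), Scn3a (5.74 ± 0.530 FPKM), Scn2a1 (5.32 ± 1.13 FPKM) and Scn8a (3.21 FPKM), of which Scn3a and Scn2a1 overlapped.

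Potassium channel genes were led by cytoplasmic partners of the channels and not by the pores. The calcium-sensing subunits Kcnip1 (266, 310 and 312 FPKM) and Kcnip3 (123 ± 16.6 FPKM) and the beta subunit Kcnab1 (95.3 ± 15.5 FPKM) were highest. Other members above 10 FPKM ran from Kcnj9 (66.5 FPKM) through Kcnab3 (59 FPKM), Kcnip4 (54.9 FPKM), Kcnc1 (48.5 FPKM), Kcnab2 (47.7 FPKM), Kcnip2 (40.1 FPKM), Kcnh2 (36.5 FPKM), Kcna5 (33.9 FPKM), Kcnk1 (26 FPKM), Kcna6 (22.5 FPKM), Kcna1 (21.7 FPKM), Kcnc4 (20.6 FPKM), Kcnd3 (19 FPKM), Kcnc2 (18.3 FPKM) and Kcnj3 (11.9 FPKM) to Kcnma1 (10.2 FPKM). Kcnip1 was 13.6 ± 1.05 times Kcna1. Calcium channels showed the same kind of order, with the beta subunits Cacnb3 (37.8 ± 3.67 FPKM) and Cacnb1 (20.1 ± 4.25 FPKM) and the accessory Cacna2d3 (19.5 ± 3.04 FPKM) highest, then Cacnb2 (12.2 FPKM) and Cacnb4 (11.4 FPKM), and the pore Cacna1a at 4.51 ± 0.968 FPKM.

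Ionotropic receptors gave a mixed composition. AMPA receptors, which carry fast excitation, were led by Gria2 (68.1, 77.9 and 71.2 FPKM) and Gria4 (57.4, 53.9 and 58.8 FPKM), which did not overlap. Gria3 and Gria1 had 20.8 ± 3.43 and 12.9 ± 2.06 FPKM. The obligatory NMDA subunit Grin1 (40.5 ± 4.78 FPKM) made up 82.5% of its group in every library, and each Grin2 subunit was under 3 FPKM on average. The metabotropic receptors above 10 FPKM were Grm7 (28.2 ± 5.50 FPKM), Grm2 (22.1 ± 0.965 FPKM), Grm8 (19.1 ± 1.89 FPKM) and Grm4 (11.3 ± 1.92 FPKM). For inhibition, GABA-A subunits above 10 FPKM included Gabrd (53.0 ± 10.3 FPKM), Gabra3 (39.6 ± 1.40 FPKM) and Gabra2 (12.2 ± 2.02 FPKM). The GABA-B subunits Gabbr2 (45.9 ± 4.96 FPKM) and Gabbr1 (29.8 ± 5.77 FPKM) and the glycine receptor genes Glrb (49.7 ± 3.11 FPKM), Glra2 (19 ± 3.94 FPKM) and Glra3 (17.7 ± 1.78 FPKM) were also above 10 FPKM. Nicotinic receptors were led by Chrna6 (111, 123 and 95.6 FPKM) and Chrnb3 (33.2, 32.6 and 33.2 FPKM), followed by Chrna2 (16.1 ± 4.95 FPKM) and Chrna7 (12.1 ± 3.38 FPKM), and Chrna9 and Chrna10 were listed at 0.

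Genes of activity, injury and survival were measured in the saline-injected eyes as well. The immediate early genes Fos (94.5, 113 and 107 FPKM), Jund (99.1 ± 12.4 FPKM) and Egr1 (76.3, 69.4 and 72.8 FPKM) were the highest of 21, and Egr2 and Egr3 were listed at 0. The isolation buffers held actinomycin D, an inhibitor of transcription, according to the methods. Its effect on these genes was not tested. Of 23 axon injury genes, 13 reached 10 FPKM in every library, led by the stress factors Atf4 (247, 256 and 200 FPKM) and Ddit3 (167, 164 and 137 FPKM) and by Gap43. In the Bcl2 family the mitophagy receptors Bnip3 (295 ± 13.4 FPKM) and Bnip3l (101 ± 7.99 FPKM) were above the death effector Bax (75.8 ± 7.72 FPKM), and Bcl2l1, which protects neurons, had 57.9 ± 0.801 FPKM. Mitochondrial dynamics and optic nerve disease genes were led by the fission protein Fis1 (387 ± 56.2 FPKM), Pink1 (232 ± 28.8 FPKM) and Mff (189 ± 7.6 FPKM). Genes of NAD supply and axon degeneration were low, led by Nmnat2 (14.8 ± 2.30 FPKM), Nadk (14.8 ± 0.589 FPKM) and Nmnat1 (9.17 ± 0.523 FPKM), and Sarm1 had 8.20 ± 1.68 FPKM.

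Signalling and surface genes were lower again. Neurotrophin and CNTF pathway genes above 10 FPKM included Cntfr (21.1 ± 3.13 FPKM) and Gfra1 (19.4 ± 2.09 FPKM), and Gdnf was listed at 0. No mechanosensitive or purinergic channel of 18 reached 10 FPKM in every library, with Panx1 (10.4, 11.7 and 9.65 FPKM), Trpv2 (8.21 ± 2.33 FPKM) and Trpc6 (7.28 ± 1.1 FPKM) highest, and Trpv1 was listed at 0. Axon guidance and adhesion genes were led by Ncam1, L1cam (29.6 ± 3.73 FPKM) and Sema6a (18.9 ± 2.15 FPKM). In the perineuronal matrix list the tenascin Tnc (18 ± 2.84 FPKM) was above Hapln4 (6.92 ± 1.99 FPKM) and Bcan (4.36 ± 1.80 FPKM), and Acan was listed at 0. Antigen presentation genes were led by the class I genes H2-D1 (143 ± 8.14 FPKM) and H2-K1 (16.9 ± 3.00 FPKM), near-identical copies whose division is uncertain, and by B2m (85.0, 207 and 91.9 FPKM).

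Of the 100 highest genes, 93 are protein-coding. The others were Gm1821, Mir31 and Mir6385, the long noncoding RNAs E130218I03Rik (1286, 1295 and 1159 FPKM) and Malat1, a nuclear RNA, and the pseudogenes Oaz1-ps (1012 ± 160 FPKM) and Atp6v0c-ps2 (735 ± 120 FPKM), whose parent genes share their sequence. Malat1 had 477, 512 and 1045 FPKM, so that replicate 3 stood apart from the others. Snhg11 (119 ± 11.6 FPKM) and the imprinted Peg13 (44.4 ± 7.15 FPKM) were the next of the long noncoding list.

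The libraries resembled each other closely on a log scale. Across the 23997 genes, the Pearson correlation of log2(FPKM + 1) was 0.982 between replicates 1 and 2, 0.977 between 1 and 3 and 0.978 between 2 and 3. On the linear scale it was 0.993, 0.850 and 0.845, with the lower values in the pairs that hold replicate 3. Genes are not independent replicates. The median CV was 29.7% from 1 to 10 FPKM, 15.2% from 10 to 100, 10.8% from 100 to 1000 and 9.50% at 1000 FPKM and more. In the highest class the median CV of replicates 1 and 2 alone was 3.29%, against 10.1 and 9.69% for the pairs with replicate 3. The SD between libraries was 2.59 times the SD implied by the authors' intervals in the class from 1 to 10 FPKM and 5.87 times in the class of 1000 FPKM and more (medians), so the spread was wider than these intervals allow.

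**Figure D5:**
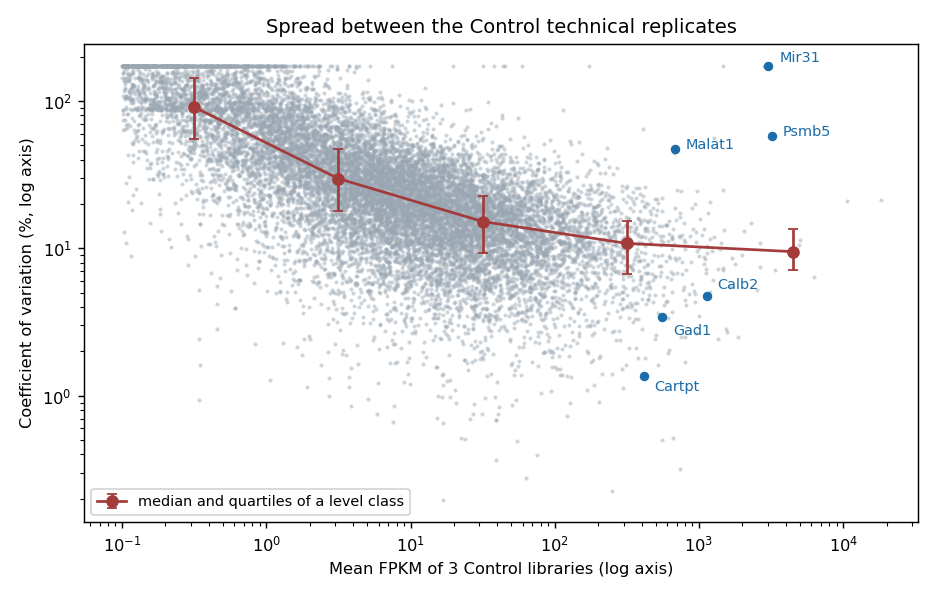
CV between the 3 Control libraries (%, log axis) against mean FPKM (log axis) for genes of 0.1 FPKM or more, with medians and quartiles of level classes in red. Cartpt (1.35%) and Calb2 (4.77%) lie below the medians, and Mir31 lies at 173%, the value of a gene listed above 0 in a single library.

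Among the 4729 genes with a mean above 16 FPKM, 3601 had a CV under 20% and 56 had one over 50%. The least variable were the kinase Snrk (16.6, 16.6 and 16.7 FPKM), Arl6ip1 (248, 249 and 249 FPKM), the protein kinase C gene Prkcb (63.3 ± 0.175 FPKM), the elongin Tceb2 (743 ± 2.37 FPKM) and the nucleic acid-binding Ybx1 (39.0 ± 0.142 FPKM). The 10 most variable were each above 0 in a single library, among them Mir31, Mir6385, Mir3473e (520 FPKM) and Rab26os (59.3 FPKM) in replicate 3, Mir6236 (95.5 FPKM) in replicate 2, and Snora65 (178 FPKM), Snora28 (135 FPKM), Mir8112 (131 FPKM) and Mir1957b (115 FPKM) in replicate 1. Of the 12 genes above 16 FPKM that were listed at 0 in any library, 10 had no annotated transcript of 300 nt or more.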

How the data were processed

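RNA sequencing libraries of 3 technical replicates of 1 pool of Control cells were analysed. Reads were aligned by the authors to the mm10 build, and the deposited values are FPKM per locus, estimated by the authors with Cufflinks for each library separately, with a confidence interval and a status. The submitters' processing notes also name TopHat2, Trimmomatic, FastQC and Cuffdiff. Where several loci carried one symbol, their FPKM were added. Values were otherwise used as deposited, since no library totals accompany them. Starts were raised by 1, as the files count from 0. The fragments behind a value were derived from its interval as (2 × FPKM / (upper bound − FPKM)) squared, and depth from single-transcript genes (2000 nt or longer, 100 fragments or more). Derived fragments are too low for genes with several isoforms or shared reads. Transcript lengths came from GENCODE M21, and gene types, promoters and hairpins from RefSeq (GRCm38.p6).

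Oligo-dT priming and PCR amplification limit short and rare transcripts. A gene was counted as detected at 1 FPKM. Medians of a list were taken per library and averaged. Scripts were run in Python 3.11 and were tested on simulated data. The named genes are the 30 highest, the ganglion cell markers, the 3 highest members of each other list, noncoding genes among the 100 highest, the most and least variable genes above 16 FPKM and channel or receptor members above 10 FPKM. Genes beyond this rule were named after their values were seen, as were the 30 groups of related genes. The members and the 62 gene lists were chosen with earlier results of these data known. Naprt, Hbb-b2 and Pantr1 could not be matched to a symbol of the files. The 6 IOP libraries were not used here. Some genes that this rule names are not reported here.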

Additional observations from a re-analysis of the deposited data

How the results depend on the processing

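No paired analysis was possible because the values come from a single group and no test was made. With 3 technical replicates of 1 pool, nothing can be said of variation between animals, and values under 1 FPKM rest on few fragments. The count of genes at 1 FPKM or more in every library was 10585, and between 10849 and 10952 when 1 replicate was left out. Leaving out 1 replicate gave 11.3 to 11.6% for the 10 highest genes, 28.0 to 28.6% for the 100 highest and 65.5 to 66.2% for the 1000 highest, and 1099 to 1153 FPKM for Calb2 (rank 36 to 46), 911 to 952 FPKM for Sncg (rank 57 to 60) and 412 to 418 FPKM for Cartpt (rank 198 to 206). The median was 103 to 122 FPKM for ganglion cell markers, 24.8 to 25.9 for amacrine, 26.5 to 27.9 for rod, 5.33 to 6.61 for lens and 1.40 to 1.74 for microglia genes. The shares were 0.746 to 0.759% for ganglion cell markers, 3.80 to 4.09% for glycolysis, 2.89 to 2.99% for complex I and 1.66 to 2.11% for the proteasome.

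The 10 highest genes held 10.7% with the highest locus of a symbol in place of the sum, 11.0% without transcripts under 300 nt and 9.91% among protein-coding genes, and the 100 highest held 26.8% among protein-coding genes. Scaled to a fixed library sum, as TPM is, Calb2 was 1998, Sncg 1640 and Cartpt 735. Without members under 0.5 FPKM the median was 41.3 FPKM for amacrine, 17.4 for lens and 2.37 for microglia genes. The mean of log2(FPKM + 1), transformed back, was 22.3 FPKM for rod and 2.44 for microglia genes. With a pseudocount of 0.1 it was 19.3 for amacrine, 21.4 for rod and 2.91 for lens genes. The proteasome share was 1.14% without Psmb5 and Psmc4, an alternative chosen after seeing the data. The median CV was 13.1% above 16 FPKM, and for replicates 1 and 2 it was 6.33% from 100 FPKM and 3.29% from 1000 FPKM. The mean correlation of 0.979 was 0.967 with a pseudocount of 0.1 and 0.955 over genes of at least 0.5 FPKM on average. Ranking by the median over libraries, also chosen after seeing the data, kept 27 of the 30 highest genes with Mir31 and Mir6385 among those left out. Of 903 other values of lists under these alternatives, 777 moved by less than the SD between libraries and 126 did not. Values with a replicate left out are means over libraries that also enter the main value. By construction they cannot move by as much as an SD above 0, so they do not measure stability. Of the 126, 38 were medians replaced by the back-transformed mean of log2(FPKM + 1), and 37 by that with a pseudocount of 0.1. A further 35 were medians without members under 0.5 FPKM. Each other setting added at most 1 median and at most 5 shares to the 126. That median was of the fibroblast list, which was 0 in every library with an SD of 0. It was counted although it did not move. Why other lists moved was not tested.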
